A study of Homo sapiens with 60 samples.

Results

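The 10 genes described here are non-coding host genes of small nucleolar RNAs (snoRNAs), namely GAS5, SNHG1, SNHG3, SNHG5, SNHG6, SNHG7, SNHG8, SNHG12, SNHG15 and SNHG16. They were selected by gene name from the 42141 genes of the deposited RNAseq table, and all 10 passed the filter on low values that left 14692 genes for testing. Their levels in these cell lines were already known when they were selected. The differences of the 10 genes between lines are therefore given as values with their spread, and no p-value is attached to them.

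A snoRNA host gene is transcribed and spliced like an mRNA gene, but its introns are the useful part. Each intron that holds a snoRNA is trimmed to a short RNA that guides the chemical modification or the cleavage of ribosomal RNA, with C/D box snoRNAs directing ribose methylation and most H/ACA box snoRNAs directing pseudouridylation. The spliced exons that remain carry only short or no open reading frames, many are exported and cleared by nonsense-mediated decay (NMD) once a ribosome has read them, and several begin with the run of pyrimidines that also opens the mRNAs of ribosomal proteins.

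All values come from HEK293-EBNA1-6E cells, derived from human embryonic kidney and made to express EBNA1, an Epstein-Barr virus protein. The lines were ALG6-/- cells, ALG6/UGGT1-/- cells, ALG6/UGGT2-/- cells, ALG6/UGGT1/UGGT2-/- cells and the unedited parental WT cells. ALG6 is the enzyme that glucosylates the N-glycan precursor for the first time, and UGGT1 and UGGT2 put a glucose back onto the N-glycans of misfolded glycoproteins in the endoplasmic reticulum, so the multiple knockout lines all lack ALG6 as well. Each line gave 3 biological replicates cultured for 48 hr, and each replicate is 1 library of poly(A) RNA. Each knockout line was grown from a colony of a single cell and 1 line per genotype was sequenced, so the clone and the genotype cannot be told apart.

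Levels are CPM, the counts of a gene per 1000000 counts of its library, and 1 CPM was worth 23.6 to 27.2 reads. ALG6 measured 1.03 to 5.87 CPM over the 12 libraries of the 4 knockout lines, against 12.7 to 15.6 CPM in WT cells. UGGT1 measured 18 to 33.1 CPM in the lines that lack it, against 43.1 to 79.8 CPM in WT cells, but it also spread between 13.1 and 83.9 CPM in the ALG6-/- libraries. UGGT2 overlapped, at 11.2 to 17.8 CPM in the lines that lack it and 12.8 to 22.8 CPM in WT cells. The kidney line markers VIM, KRT8, KRT18, PAX2 and LIN28B were found in all 15 libraries, and of 7 markers of other cell types 6 stayed at or below 0.281 CPM, the exception being COL1A1 at 36.8 to 76.2 CPM. Long transcripts were low in ALG6-/- replicate 2 and in WT replicate 3 relative to the other replicates of their lines. On the log2 scale the median of all genes tested lay at -0.44 in ALG6-/- over WT cells and between -0.03 and 0.07 in the other knockout lines over WT cells.

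The hosts can be sorted by the snoRNAs that the GENCODE 44 and RefSeq annotations of hg38 place within them. GAS5 spans 10 C/D box and 1 H/ACA box snoRNAs, SNHG1 spans 8 named C/D box snoRNAs, SNHG16 spans SNORD1A, SNORD1B and SNORD1C, SNHG5 spans SNORD50A and SNORD50B, and SNHG6 spans SNORD87. The H/ACA box hosts are SNHG3 with SNORA73A and SNORA73B, SNHG7 with SNORA17A and SNORA17B, SNHG8 with SNORA24, and SNHG15 with SNORA9. SNHG12 holds 3 H/ACA box snoRNAs and 1 C/D box snoRNA. The hosts lie at chr1:173858559-173868882 (GAS5, minus strand), chr11:62851978-62855953 (SNHG1, minus strand), chr17:76557727-76670985 (SNHG16, plus strand), chr6:85650491-85678932 (SNHG5, minus strand), chr1:28505980-28510892 (SNHG3, plus strand), chr9:136721366-136728184 (SNHG7, minus strand), chr4:118278703-118285316 (SNHG8, plus strand), chr7:44983019-44986961 (SNHG15, minus strand) and chr1:28578538-28583132 (SNHG12, minus strand) of hg38.

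For the host that was lowest and the host that was highest in ALG6-/- relative to WT cells, snoRNAs are shown (5 of the 8 named ones of SNHG1 and both of SNHG3) because they are the intron products that SNHG1 and SNHG3 are spliced to release. The sequences are those of GENCODE 44. For SNHG1 the capitals mark the first TGATGA, the letters of box C, and the last CTGA, the letters of box D. Further copies of these letters are not marked.
SNORD25: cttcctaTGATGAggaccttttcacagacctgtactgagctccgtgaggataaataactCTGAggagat
SNORD26: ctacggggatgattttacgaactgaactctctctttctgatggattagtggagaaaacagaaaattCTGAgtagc
SNORD27: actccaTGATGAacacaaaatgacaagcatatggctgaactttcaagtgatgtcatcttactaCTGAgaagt
SNORD28: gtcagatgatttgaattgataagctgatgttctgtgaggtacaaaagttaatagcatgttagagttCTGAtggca
SNORD30: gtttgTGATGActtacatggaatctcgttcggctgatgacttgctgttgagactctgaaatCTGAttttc
SNORD25, SNORD27 and SNORD30 hold both motifs, while SNORD26 and SNORD28 hold CTGA and no TGATGA. Both motifs, TGATGA beginning in the first 12 bases and CTGA in the last 12 bases, were held by 59.1% of the 313 annotated SNORD transcripts and by none of the 214 SNORA transcripts. For SNHG3 the capitals mark the ACA near the end of its pair of H/ACA box snoRNAs, which take part in the cleavage of the ribosomal RNA precursor.
SNORA73A: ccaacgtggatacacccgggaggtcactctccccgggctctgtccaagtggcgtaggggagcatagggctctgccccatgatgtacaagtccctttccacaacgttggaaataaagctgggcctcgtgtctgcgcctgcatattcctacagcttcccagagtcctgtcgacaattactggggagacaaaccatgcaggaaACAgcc
SNORA73B: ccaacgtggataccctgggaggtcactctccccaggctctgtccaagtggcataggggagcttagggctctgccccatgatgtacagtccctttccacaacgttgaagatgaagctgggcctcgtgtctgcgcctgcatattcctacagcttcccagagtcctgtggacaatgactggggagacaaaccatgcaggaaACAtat
An ACA in the last 8 bases was held by 82.2% of SNORA and 6.1% of SNORD transcripts. SNORA73A and SNORA73B were identical at 192 of 206 aligned positions.

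The snoRNAs themselves were near the floor of these poly(A) libraries. The table holds rows for 21 of the snoRNAs within the hosts, none of them in GAS5. The highest single value was 0.236 CPM, for SNORA73A, and the summed snoRNA rows of a host stayed at or below 0.315 CPM, while the lowest value of any of the hosts was 3.02 CPM. The values that follow are therefore those of the spliced or partly spliced host RNA and do not measure the snoRNAs. In bulk RNA a change in every cell and a change in the share of cells cannot be told apart.

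GAS5, named for growth arrest and a gene whose RNA accumulates when growth stops or translation is blocked, measured 180.0, 158 and 156 CPM in the ALG6-/- libraries, 327, 241 and 259.6 CPM in the ALG6/UGGT1-/- libraries, 203, 179 and 196 CPM in the ALG6/UGGT2-/- libraries and 215, 195 and 194 CPM in the ALG6/UGGT1/UGGT2-/- libraries, against 288, 279.6 and 336 CPM in WT cells. The ALG6-/- libraries were all below the WT libraries, as were those of ALG6/UGGT2-/- and ALG6/UGGT1/UGGT2-/- cells, and only the ALG6/UGGT1-/- libraries overlapped WT. The log2 fold change of ALG6-/- over WT cells was -0.87 ± 0.11 (limma estimate ± SE on log2(CPM + 0.5), as for all fold changes of the hosts) and -0.43 against the all-gene median. Exons of GAS5 share 132 bases with GAS5-AS1 on the opposite strand. The kit keeps the strand, but the strand setting of the counting is not given in the sources used here.

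SNHG1, a gene whose introns and not its exons give the stable RNA products, measured 57.4, 40.0 and 45.2 CPM in the ALG6-/- libraries, 316, 268 and 289.9 CPM in the ALG6/UGGT1-/- libraries, 222, 227 and 232 CPM in the ALG6/UGGT2-/- libraries and 79.9, 78.9 and 77.6 CPM in the ALG6/UGGT1/UGGT2-/- libraries, against 295, 276 and 305 CPM in WT cells. The order from the lowest line was ALG6-/-, ALG6/UGGT1/UGGT2-/-, ALG6/UGGT2-/-, ALG6/UGGT1-/- and WT, and of these neighbours only ALG6/UGGT1-/- and WT cells overlapped. The mean in ALG6-/- cells was 6.15-fold lower than in WT cells (log2 fold change -2.62 ± 0.11) and that in ALG6/UGGT1/UGGT2-/- cells was 3.68-fold lower (log2 fold change -1.88 ± 0.11). The span between its highest and lowest line mean was wider than that of 97.3% of all genes tested.

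SNHG5, host of the SNORD50 pair, measured 262, 256 and 249.8 CPM in the ALG6-/- libraries, 168, 121 and 126 CPM in the ALG6/UGGT1-/- libraries, 184, 171 and 191 CPM in the ALG6/UGGT2-/- libraries and 196, 170.4 and 181 CPM in the ALG6/UGGT1/UGGT2-/- libraries, against 191, 176 and 249.7 CPM in WT cells. ALG6-/- cells were highest, but their lowest library, at 249.8 CPM, exceeded WT replicate 3, at 249.7 CPM, by a margin far inside the spread of either line, so the separation rests on that margin. Its exons also share bases on the same strand with the pseudogene PKMP3, which is not analysed here. The log2 fold change of ALG6-/- over WT cells was 0.33 ± 0.13 and that of ALG6/UGGT1-/- over WT cells was -0.57 ± 0.13. The ALG6/UGGT1-/- libraries lay below every library of the other 4 lines.

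SNHG6, host of SNORD87, measured 57.8, 52.4 and 60.1 CPM in the ALG6-/- libraries, 32.7, 22.4 and 23.9 CPM in the ALG6/UGGT1-/- libraries, 35.9, 31.8 and 31.4 CPM in the ALG6/UGGT2-/- libraries and 60, 54.1 and 58.6 CPM in the ALG6/UGGT1/UGGT2-/- libraries, against 37.5, 35.5 and 46.6 CPM in WT cells. Both ALG6-/- and ALG6/UGGT1/UGGT2-/- cells were above every library of the other 3 lines, with log2 fold changes over WT cells of 0.51 ± 0.14 and 0.53 ± 0.14. Its exons share 1488 bases with MCMDC2 on the opposite strand, a gene listed at 0 CPM in every ALG6-/-, ALG6/UGGT2-/-, ALG6/UGGT1/UGGT2-/- and WT library.

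SNHG16, host of the SNORD1 cluster, measured 307, 269 and 276 CPM in the ALG6-/- libraries, 223, 210.1 and 189 CPM in the ALG6/UGGT1-/- libraries, 163, 171 and 159 CPM in the ALG6/UGGT2-/- libraries and 169.8, 158 and 156 CPM in the ALG6/UGGT1/UGGT2-/- libraries, against 188, 192 and 170.3 CPM in WT cells. The ALG6-/- libraries stood above all others, 1.54-fold over WT cells (log2 fold change 0.63 ± 0.08), and the other 4 line means lay between 161 and 207 CPM.

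SNHG3, an H/ACA box host, differed most from WT cells in the upward direction. It measured 185, 181 and 175 CPM in the ALG6-/- libraries, 35.5, 36.3 and 40.2 CPM in the ALG6/UGGT1-/- libraries, 28.8, 29.5 and 29.8 CPM in the ALG6/UGGT2-/- libraries and 55.5, 53.2 and 57.8 CPM in the ALG6/UGGT1/UGGT2-/- libraries, against 47.9, 47.2 and 47.9 CPM in WT cells. Every neighbouring pair of lines was separate, in the order ALG6/UGGT2-/-, ALG6/UGGT1-/-, WT, ALG6/UGGT1/UGGT2-/- and ALG6-/- from the lowest. ALG6-/- cells were 3.76-fold above WT cells (log2 fold change 1.91 ± 0.06), with replicates that spread by 5.26 CPM (SD, n = 3) around 181 CPM. The exons of SNHG3 share 242 bases on the same strand with RCC1, the exchange factor of the GTPase Ran. RCC1 measured 157 ± 13.6 CPM in ALG6-/- cells and 204 ± 17.3 CPM in WT cells (SD, n = 3 each). Its log2 fold change of -0.37 ± 0.08 (SE) was near the all-gene median of -0.44, so RCC1 did not share the rise of SNHG3.

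SNHG7, host of the SNORA17 pair, measured 70.5, 78.8 and 79.0 CPM in the ALG6-/- libraries, 43.7, 39.0 and 38.7 CPM in the ALG6/UGGT1-/- libraries, 45.3, 44.2 and 44 CPM in the ALG6/UGGT2-/- libraries and 58.5, 52.1 and 54.8 CPM in the ALG6/UGGT1/UGGT2-/- libraries, against 62.8, 71.0 and 70.4 CPM in WT cells. ALG6-/- and WT cells overlapped, and the other 3 lines were each below every WT library, with log2 fold changes between -0.74 and -0.30. Its exons share 1482 bases with FAM69B on the opposite strand, which had the same order of line means except that ALG6/UGGT1-/- and ALG6/UGGT2-/- cells changed places.

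SNHG8, host of SNORA24, measured 18.2, 21.5 and 21.3 CPM in the ALG6-/- libraries, 29.2, 23.6 and 22.6 CPM in the ALG6/UGGT1-/- libraries, 34.3, 33.2 and 35.9 CPM in the ALG6/UGGT2-/- libraries and 16.6, 17.8 and 16.8 CPM in the ALG6/UGGT1/UGGT2-/- libraries, against 31.0, 32.2 and 34.5 CPM in WT cells. Libraries of ALG6-/-, ALG6/UGGT1-/- and ALG6/UGGT1/UGGT2-/- cells were all below WT, and those of ALG6/UGGT2-/- cells overlapped WT. The log2 fold change of ALG6-/- over WT cells was -0.67 ± 0.10, or -0.23 against the all-gene median, and it became 0.25 once transcript length and GC content were corrected for. Its exons share 2487 bases with PRSS12 on the opposite strand, which measured 21.0 ± 6.19 CPM in ALG6-/- cells and 17.4 ± 4.84 CPM in WT cells (SD, n = 3 each).

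SNHG15, host of SNORA9 and a short-lived RNA, measured 50.2, 39.6 and 47.2 CPM in the ALG6-/- libraries, 197, 157 and 184 CPM in the ALG6/UGGT1-/- libraries, 188, 176 and 179 CPM in the ALG6/UGGT2-/- libraries and 129.6, 124 and 115 CPM in the ALG6/UGGT1/UGGT2-/- libraries, against 208, 205 and 249 CPM in WT cells. All 4 knockout lines were below every WT library. ALG6-/- cells were 4.79-fold below WT cells (log2 fold change -2.26 ± 0.11), and ALG6/UGGT1/UGGT2-/- cells were 1.79-fold below them (log2 fold change -0.84 ± 0.11).

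SNHG12, a host of both kinds of snoRNA, rested on the fewest reads of the 10. It measured 5.09, 3.31 and 4.84 CPM in the ALG6-/- libraries, 4.24, 4.17 and 5.33 CPM in the ALG6/UGGT1-/- libraries, 3.02, 3.85 and 3.65 CPM in the ALG6/UGGT2-/- libraries and 3.53, 3.32 and 3.16 CPM in the ALG6/UGGT1/UGGT2-/- libraries, against 5.87, 5.98 and 4.95 CPM in WT cells. Every neighbouring pair of lines overlapped, and only the ALG6/UGGT2-/- and ALG6/UGGT1/UGGT2-/- libraries lay wholly below those of WT cells.

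**Figure D1:**
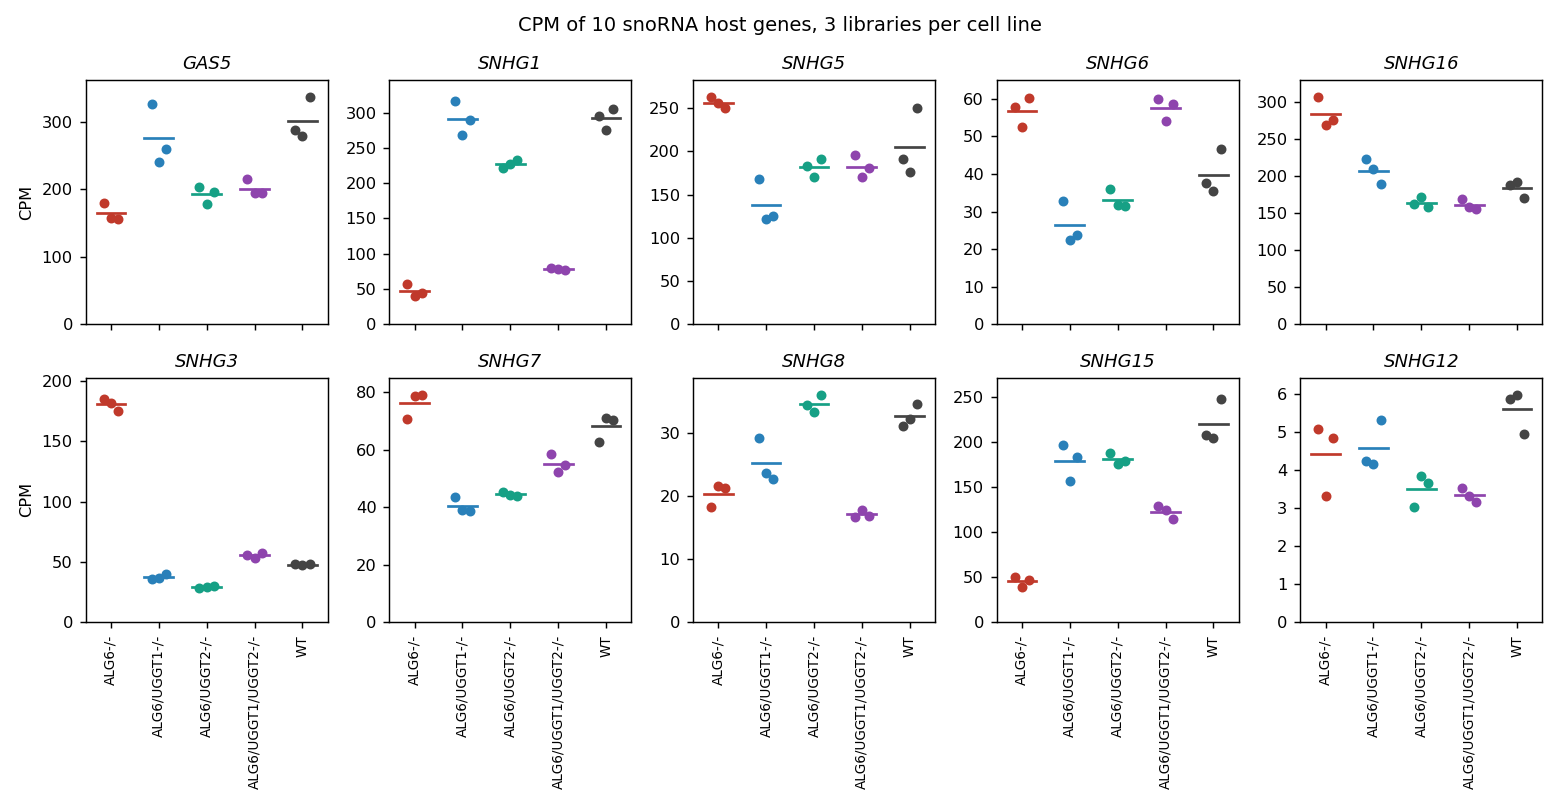
CPM (linear axis from 0) of the 10 host genes in 5 cell lines, with 1 panel per gene, 1 point per library and a bar at the mean of 3 replicates. SNHG3 stands at 175.0 to 185.4 CPM in ALG6-/- cells and at 28.8 to 57.8 CPM in the other 4 lines, while SNHG1 stands at 40.0 to 57.4 CPM in ALG6-/- cells and 275.5 to 305.4 CPM in WT cells.

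Set side by side, the hosts did not move in 1 direction. In ALG6-/- against WT cells, 4 hosts lay above WT in every library (SNHG3, SNHG5, SNHG6 and SNHG16), 4 lay below (SNHG1, SNHG8, SNHG15 and GAS5), and SNHG7 and SNHG12 overlapped. This split was read on the CPM as deposited and depends on the scaling. After median ratio rescaling the log2 fold change of SNHG7 was 0.59, against 0.16, and that of SNHG8 was -0.24, against -0.67. The length and GC correction turned SNHG8 to 0.25. Of all calls in this comparison (limma, adjusted p under 0.05) 24.9% were higher as deposited and 51 to 53% under the other scalings. Over all genes tested, 14.9% lay above WT in every ALG6-/- library and 38.2% below. C/D box hosts were found on both sides, with SNHG5, SNHG6 and SNHG16 above WT and GAS5 and SNHG1 below, and so were H/ACA box hosts, with SNHG3 above and SNHG8 and SNHG15 below. The median log2 fold change of the 10 hosts was -0.08, against -0.44 for all genes, and took the other sign, at 0.16 to 0.34, under a filter of 5 CPM, median ratio rescaling, quantile normalization and the length and GC correction. Single hosts lay within a range of -2.62 to 1.91. Relative to that median of all genes the values were 2.35 for SNHG3, 1.07 for SNHG16, 0.95 for SNHG6, 0.77 for SNHG5, 0.60 for SNHG7 and 0.11 for SNHG12 on the higher side, and -0.23 for SNHG8, -0.43 for GAS5, -1.82 for SNHG15 and -2.18 for SNHG1 on the lower side. The range of line means of SNHG1, SNHG3 and SNHG15 exceeded that of 94.5% or more of all genes, and the median range of the 10 hosts was 1.93-fold, against 2.00-fold for all genes.

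In the other knockout lines against WT cells, fewer hosts were above WT. In ALG6/UGGT1-/- cells no host lay above WT in every library and 6 lay below, where 20.3% of all genes lay above and 19.4% below. In ALG6/UGGT2-/- cells no host lay above and 6 lay below, where 15.4% of all genes lay above and 16.1% below. In ALG6/UGGT1/UGGT2-/- cells SNHG3 and SNHG6 lay above and 7 hosts below, where 24.3% of all genes lay above and 30.3% below. SNHG16 is among the 7 by a narrow margin, with its highest ALG6/UGGT1/UGGT2-/- library at 169.8 CPM and WT replicate 3 at 170.3 CPM. Its log2 fold change there was -0.19 ± 0.08. The median log2 fold change of the 10 hosts was -0.32 in ALG6/UGGT1-/- cells, -0.32 in ALG6/UGGT2-/- cells and -0.44 in ALG6/UGGT1/UGGT2-/- cells, each over WT cells. The 4 comparisons share the WT libraries. The CPM of the 10 hosts summed to 1136 ± 50.6 in ALG6-/- cells, 1226 ± 133 in ALG6/UGGT1-/- cells, 1092 ± 22.0 in ALG6/UGGT2-/- cells and 935.3 ± 42.9 in ALG6/UGGT1/UGGT2-/- cells, against 1397 ± 104 in WT cells (SD, n = 3 each).

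**Figure D2:**
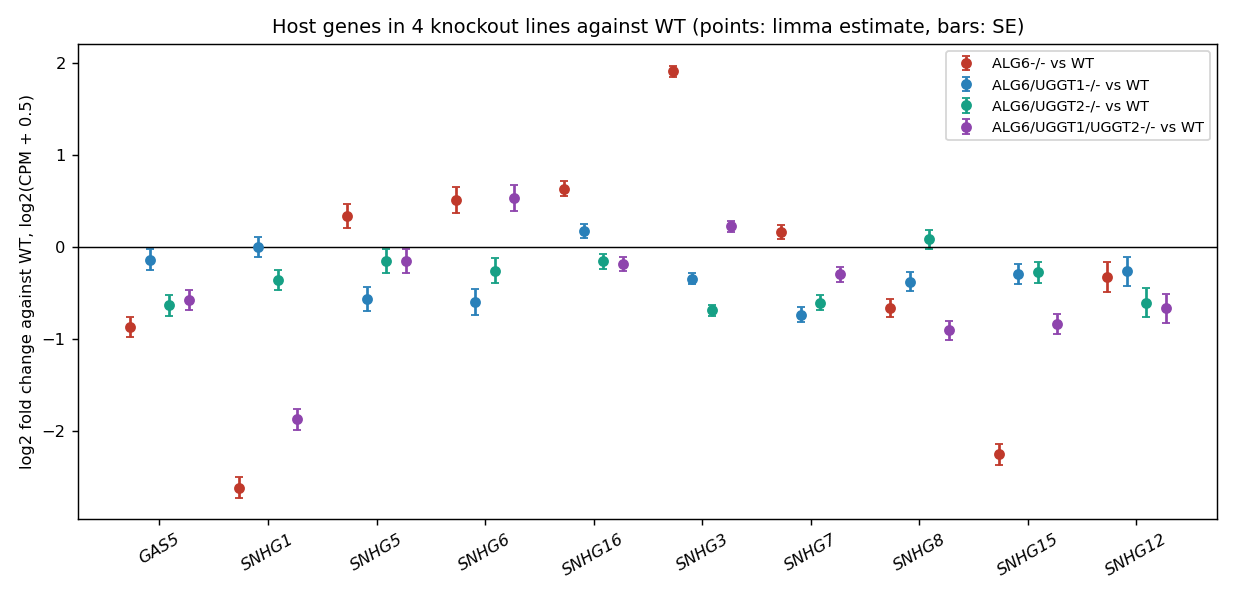
Log2 fold change of the 10 host genes in 4 knockout lines over WT cells on the log2(CPM + 0.5) scale (points, estimates of 1 limma fit over 15 libraries, and bars, SE). ALG6-/- cells range from -2.62 for SNHG1 to 1.91 for SNHG3, and the ALG6/UGGT1-/- and ALG6/UGGT2-/- cells lie between -0.74 and 0.17.

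The multiple knockout lines were also set against the ALG6-/- cells, from which they differ by label in UGGT1, UGGT2 or both. The lines also differed in ALG6 RNA, at 1.03 to 1.29 CPM in the ALG6-/- libraries and 2.27 to 5.87 CPM in the multiple knockout libraries. These comparisons therefore do not isolate UGGT1 or UGGT2. In ALG6/UGGT1-/- cells 4 hosts lay above every ALG6-/- library (SNHG1, SNHG8, SNHG15 and GAS5) and 5 below (SNHG3, SNHG5, SNHG6, SNHG7 and SNHG16), where 48.6% of all genes lay above and 20.3% below. In ALG6/UGGT2-/- cells the hosts above were SNHG1, SNHG8 and SNHG15 and the same 5 were below, where 45.2% of all genes lay above and 19.6% below. In ALG6/UGGT1/UGGT2-/- cells 3 hosts lay above and 5 below, where 46.4% of all genes lay above and 19.9% below. Those separations were read on the CPM as deposited, and the fold changes moved with the scaling. After median ratio rescaling the log2 fold change of GAS5 in ALG6/UGGT1-/- over ALG6-/- cells was 0.23, against 0.73 as deposited. In that comparison SNHG1 and SNHG3 then stood at 2.12 and -2.76, against 2.62 and -2.26 as deposited. The median of all genes in it was 0.06 after the rescaling. SNHG1 was 6.13-fold higher in ALG6/UGGT1-/- than in ALG6-/- cells, 4.79-fold higher in ALG6/UGGT2-/- and 1.67-fold higher in ALG6/UGGT1/UGGT2-/- cells, and SNHG3 was 4.79-fold, 6.07-fold and 3.23-fold lower in the same 3 lines. As deposited, the median of all genes in these comparisons was 0.52, 0.46 and 0.36 on the log2 scale. The median of the 10 hosts was -0.20, -0.39 and -0.29. Relative to the median of all genes, SNHG8 in ALG6/UGGT1-/- cells lay at -0.23 although its own log2 fold change was 0.29 ± 0.10, and under rescaling by the median ratio it was -0.20.

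By the shape of the 5 line means alone, the closest pair within the 10 was SNHG5 and SNHG7, which differed by a root mean square of 0.144 on the log2 scale. SNHG1 and SNHG15 were each other's closest host at 0.454. The genes outside the 10 whose centred line means were most like the median profile of the hosts were TMEM231, CTD-2515O10.6, SLC35A4, SSNA1 and AUP1, which differed from it by 0.071 to 0.087 over 5 lines. Of the hosts, SNHG12 at 0.124 was the nearest to that profile and SNHG1 at 1.11 the farthest.

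The starts of the hosts are shown because a pyrimidine run at the first base is the feature that non-coding hosts are known to share with ribosomal protein genes. RefSeq promoter sequences (GRCh38.p14) were available for 8 of the 10 hosts, and 40 bases of each are given on the strand of the gene, with 15 bases before and 25 from the annotated start on. Capitals mark an unbroken run of at least 5 C or T bases that opens with C within 10 bases of the annotated start, searched on the strand of the gene.
GAS5 (chr1:173869021-173869060): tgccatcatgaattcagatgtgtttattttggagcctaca
SNHG1 (chr11:62855861-62855900): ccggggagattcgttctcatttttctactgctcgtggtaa
SNHG5 (chr6:85678709-85678748): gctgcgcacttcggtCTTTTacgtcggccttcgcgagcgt
SNHG16 (chr17:76557749-76557788): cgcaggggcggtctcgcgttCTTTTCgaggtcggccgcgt
SNHG3 (chr1:28505928-28505967): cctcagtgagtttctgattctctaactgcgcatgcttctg
SNHG7 (chr9:136728160-136728199): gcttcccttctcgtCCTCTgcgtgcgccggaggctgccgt
SNHG8 (chr4:118278747-118278786): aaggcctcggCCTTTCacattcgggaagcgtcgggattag
SNHG12 (chr1:28581849-28581888): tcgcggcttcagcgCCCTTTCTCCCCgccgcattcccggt
Such a run was present in 5 of the 8 windows and in 31.4% of the 35116 promoters in the reference. It need not open at the first base, and of the 5 only that of SNHG5 opened exactly at the annotated start. SNHG5 and SNHG16, above WT in ALG6-/- cells, and SNHG8, below WT, all held one. No run by this definition was found for GAS5, SNHG1 and SNHG3, where the annotated start need not be the start used in these cells. The GAS5 and SNHG3 windows lie wholly upstream of the gene spans given above, which open at 173868882 (GAS5, minus strand) and 28505980 (SNHG3, plus strand). Whether a run opens the GAS5 and SNHG3 spans was therefore not tested. The windows of SNHG1, SNHG5, SNHG8, SNHG12 and SNHG16 lie wholly inside their gene spans. That of SNHG12 is the farthest in, from an opening at 28583132 (minus strand). The openings of these spans were not tested either.

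Of 24 other non-coding hosts, 12 had a row in the table and 10 passed the filter, of which 4 rose and 5 fell in ALG6-/- relative to WT cells (limma, adjusted p under 0.05), where 15.1% of all genes tested rose and 45.7% fell. The genes that rose were DANCR, SNHG10, SNHG4 and SNHG9. DANCR, host of SNORA26 and listed under the name KIAA0114, measured 103, 114 and 106 CPM in ALG6-/- cells, against 44.4, 47.5 and 53.6 CPM in WT cells, with a log2 fold change of 1.15 ± 0.08 (SE, limma adjusted p = 3.31e-07). SNHG9 was at the threshold, with a log2 fold change of 0.25 ± 0.10 (limma adjusted p = 0.05 after rounding), a call that did not hold under 17 of 26 alternatives, 1 of which, the length and GC correction, turned it to -0.30.

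The hosts that fell were SNHG11, SNHG20, ZFAS1, SNHG32 and EPB41L4A-AS1. SNHG11 measured 4.28, 5.09 and 4.96 CPM in ALG6-/- cells, against 30.2, 29.8 and 34.8 CPM in WT cells, with a log2 fold change of -2.60 ± 0.10 (SE, limma adjusted p = 1.85e-09). ZFAS1, host of the SNORD12 family, averaged 52.2 ± 4.39 CPM in ALG6-/- cells and 105.7 ± 1.82 CPM in WT cells (SD, n = 3 each; limma adjusted p = 1.57e-06). SNHG20, listed as LINC00338, and SNHG32, listed as C6orf48, fell by 1.03 and 0.93 on the log2 scale, and EPB41L4A-AS1 fell by 0.71. In all, 4 of these hosts passed the test as lower after rescaling by the median ratio, where 7661 of 14692 genes were called and 51% of those were higher. After the length and GC correction 3 did, where 8222 of 13353 genes were called and 53% of those were higher. SNHG29, listed as LRRC75A-AS1, was 656 ± 26.5 CPM in ALG6-/- cells and 611 ± 52.9 CPM in WT cells (SD, n = 3 each; limma adjusted p = 0.344).

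In ALG6/UGGT1/UGGT2-/- cells none of these 10 hosts rose and 5 fell relative to WT cells (limma), where 13.5% of all genes rose and 22% fell. SNHG11 again had the largest fall, with 10.5, 11.4 and 10.2 CPM in ALG6/UGGT1/UGGT2-/- cells (log2 fold change -1.52 ± 0.10, limma adjusted p = 3.8e-07), followed by ZFAS1 at -0.77 ± 0.09 (limma adjusted p = 2.92e-05). In ALG6/UGGT1-/- and in ALG6/UGGT2-/- cells none rose and 3 fell in each, where 10.3% and 6.14% of all genes rose and 13.8% and 7.75% fell. Against ALG6-/- cells, 5 rose and 5 fell in ALG6/UGGT1-/- and in ALG6/UGGT2-/- cells, and 4 rose and 4 fell in ALG6/UGGT1/UGGT2-/- cells. Of all genes, 53.1% rose and 20.4% fell in ALG6/UGGT1-/-, 48.6% rose and 18.8% fell in ALG6/UGGT2-/-, and 43.5% rose and 17.6% fell in ALG6/UGGT1/UGGT2-/- cells.

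**Figure D3:**
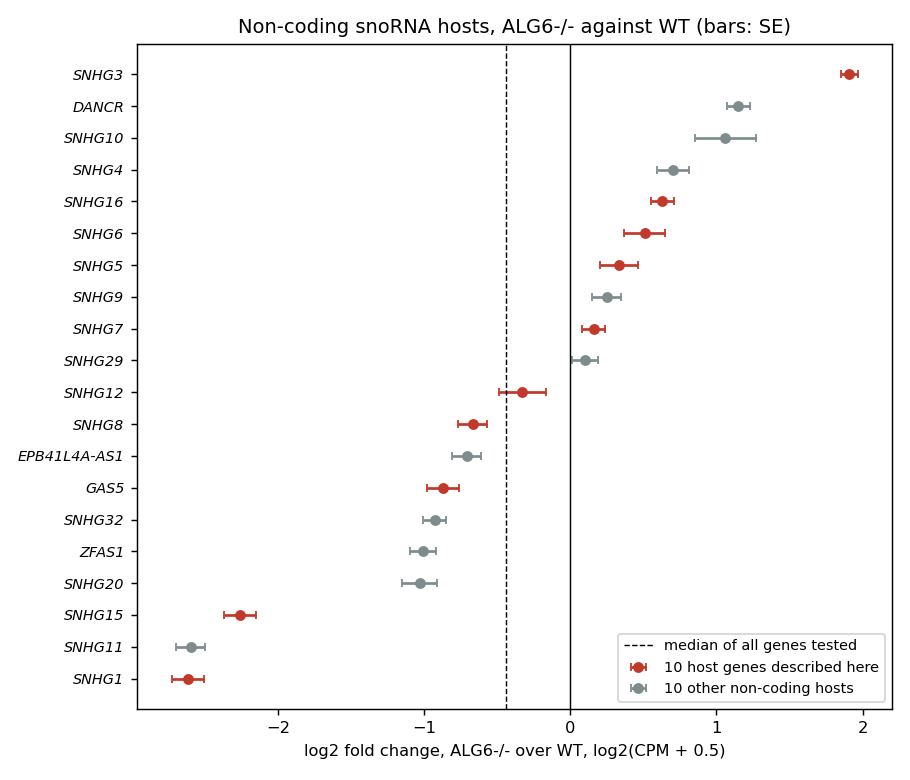
Log2 fold change of ALG6-/- over WT cells on the log2(CPM + 0.5) scale for the 10 host genes and the 10 other non-coding hosts tested (points, limma estimates, and bars, SE), with the median of all genes tested as a dashed line. SNHG1 at -2.62, SNHG11 at -2.60 and SNHG15 at -2.26 lie at the low end, and SNHG3 at 1.91, DANCR at 1.15 and SNHG10 at 1.06 at the high end.

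The protein-coding genes that host snoRNAs, mostly genes of the ribosome and of translation, were also split. In ALG6-/- relative to WT cells 13 of 39 rose, 11 fell and 15 did not pass the test (limma, adjusted p under 0.05), where 15.1% of all genes rose and 45.7% fell. The median of the list was 0.08, against -0.44 for all genes. After rescaling by the median ratio 22 rose and 6 fell, where 7661 of the 14692 genes tested were called and 51% of those were higher. Under quantile normalization 8 rose and 15 fell, where 7393 genes were called and 52.9% of those were higher. EIF4A1, an mRNA helicase of translation initiation, averaged 1355 ± 103 CPM in ALG6-/- cells and 790.5 ± 56.9 CPM in WT cells (SD, n = 3 each; limma adjusted p = 3.91e-06). RPL4, of the large ribosomal subunit, had a log2 fold change of 0.26 ± 0.09 (SE, limma adjusted p = 0.0319), which turned to -0.05 under quantile normalization. DKC1 and NOP56, which host snoRNAs and also encode core proteins of snoRNA particles, fell by 1.65 and 1.28 on the log2 scale (limma adjusted p = 3.01e-07 and 1.8e-07).

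Among 18 genes for the proteins that bind or assemble snoRNAs, 1 rose, 9 fell and 8 did not pass the test in ALG6-/- relative to WT cells. Of all genes 15.1% rose and 45.7% fell, so as deposited the share that fell is near that of all genes. The median of the list was -0.59. After rescaling by the median ratio 4 rose and 8 fell, where 7661 of the 14692 genes tested were called and 51% of those were higher. The nearness was therefore read on the deposited values only. NOP58, a core protein of C/D box particles, averaged 25.4 ± 4.72 CPM in ALG6-/- cells and 132 ± 14.9 CPM in WT cells (SD, n = 3 each), a log2 fold change of -2.37 ± 0.15 (SE, limma adjusted p = 1.38e-07). NHP2, a core protein of H/ACA box particles, was the one that rose, by 0.71 ± 0.11 on the log2 scale (SE, limma adjusted p = 0.000116).

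Since many of the hosts are substrates of NMD, the genes of that pathway were read as well. Of 21 NMD factors, 17 fell, 1 rose and 3 did not pass the test in ALG6-/- relative to WT cells, where 45.7% of all genes fell and 15.1% rose, with a median of -0.79 against -0.44 for all genes. SMG9, a regulator of the kinase SMG1, averaged 20.7 ± 0.756 CPM in ALG6-/- cells and 99.8 ± 8.14 CPM in WT cells (SD, n = 3 each; limma adjusted p = 5.17e-10). SMG6, the endonuclease of the pathway, and MAGOHB, of the exon junction complex, fell by 1.59 and 1.76 on the log2 scale (limma adjusted p = 3.9e-09 and 4.35e-08). RNPS1, a splicing factor that binds exon junctions, was the one that rose, with 449 ± 26.8 CPM in ALG6-/- cells and 171 ± 7.65 CPM in WT cells (SD, n = 3 each; limma adjusted p = 9.44e-09). The count of NMD factors that fell was 13 after the length and GC correction, where 8222 of 13353 genes were called and 53% of those were higher. It was 12 after rescaling by the median ratio, where 7661 of 14692 genes were called and 51% of those were higher.

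Of 16 protein-coding genes with mRNAs known as NMD targets, 1 rose, 10 fell and 5 did not pass the test in ALG6-/- relative to WT cells, where 15.1% of all genes rose and 45.7% fell, with a median of -0.78. ATF3, a transcription factor of the stress response, averaged 159.8 ± 9.79 CPM in ALG6-/- cells and 436 ± 82.5 CPM in WT cells (SD, n = 3 each; limma adjusted p = 6.09e-06). UPP1, a uridine phosphorylase, and NAT9 fell by 1.41 and 0.82 on the log2 scale (limma adjusted p = 2.26e-06 and 1.49e-06). BAG1, a cochaperone of HSP70, rose by 0.58 ± 0.10 (SE, limma adjusted p = 0.000442). After rescaling by the median ratio 2 rose and 6 fell, where 7661 of the 14692 genes tested were called and 51% of those were higher. The difference between these targets and the 10 hosts, which lay on both sides of WT in the same comparison, was not tested.

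The same lists were read in ALG6/UGGT1/UGGT2-/- relative to WT cells, where 13.5% of all genes rose and 22% fell. Of the NMD targets 7 rose and 6 fell, of the NMD factors 5 rose and 6 fell, of the coding hosts 6 rose and 4 fell, and of the snoRNA particle genes none rose and 6 fell. For that comparison the medians were 0.47 for NMD targets, -0.10 for NMD factors, -0.01 for coding hosts and -0.25 for snoRNA particle genes, against -0.03 for all genes.

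**Figure D4:**
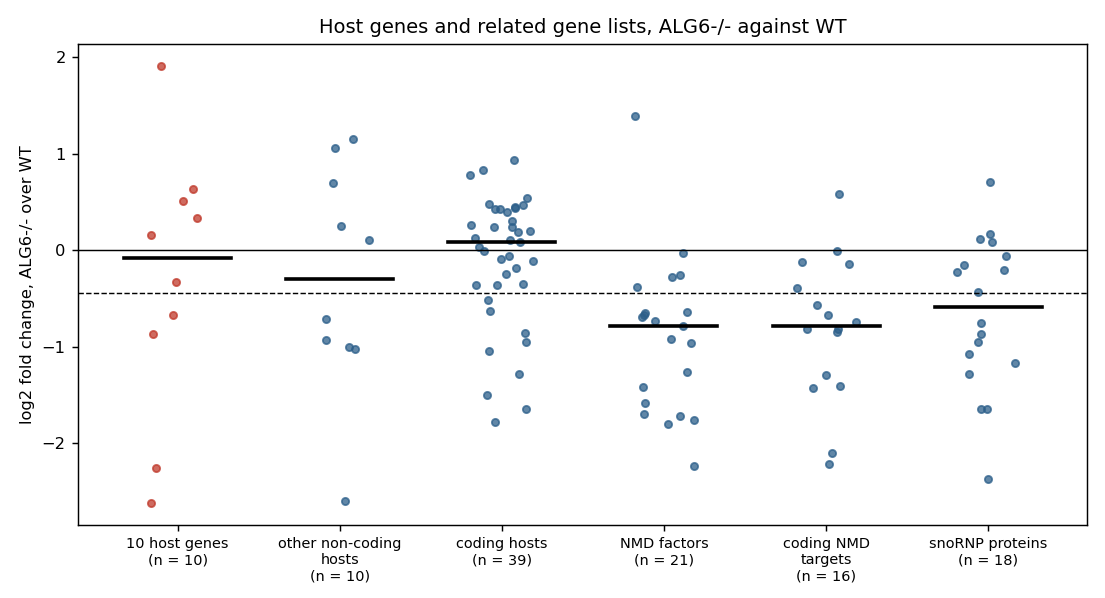
Log2 fold change of ALG6-/- over WT cells for the 10 host genes (red) and 5 related lists (blue), with 1 point per gene, a bar at the median of each list, a solid line at 0 and a dashed line at the median of all genes tested (-0.44). The medians are -0.08 for the hosts, -0.30 for other non-coding hosts, 0.08 for coding hosts, -0.79 for NMD factors, -0.78 for coding NMD targets and -0.59 for snoRNA particle proteins.

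Because the ALG6-/- libraries carried a shift of most genes and a trend with transcript length, the hosts were read again under other scalings. Over genes, the log2 fold change of ALG6-/- over WT cells had a Spearman correlation of -0.32 with transcript length and 0.41 with GC content, across 13353 genes that are not independent replicates. The directions of SNHG1, SNHG3, SNHG5, SNHG6, SNHG15, SNHG16 and GAS5 held under all 26 alternatives. SNHG3 kept a log2 fold change between 1.88 and 2.35, SNHG1 between -2.76 and -2.19 and SNHG15 between -2.33 and -1.83. Those of SNHG5 and GAS5 were less fixed in size, at 0.23 to 0.77 and -0.94 to -0.43. SNHG8 turned to 0.25 under the length and GC correction alone, where the transcript taken as its length has 6166 bases. SNHG12, which overlapped WT, took the other sign under 2 of 25 alternatives.

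**Figure D5:**
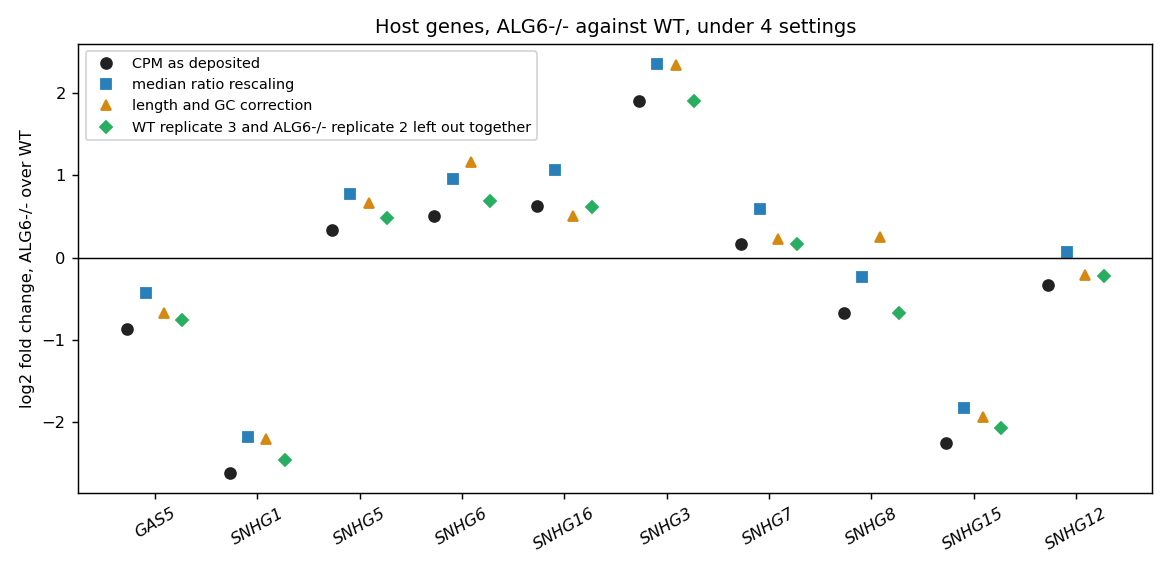
Log2 fold change of ALG6-/- over WT cells for the 10 host genes as deposited (circles), after median ratio rescaling (squares), after the length and GC correction (triangles) and without WT replicate 3 and ALG6-/- replicate 2 (diamonds). SNHG3 stays between 1.91 and 2.35 and SNHG1 between -2.62 and -2.19, while SNHG8 runs between -0.67 and 0.25.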

How the data were processed

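RNAseq was analysed in 5 HEK293-EBNA1-6E lines with 3 biological replicates each, 15 libraries in all. Poly(A) RNA went into libraries of a directional kit. The authors ran each library in 4 lanes (60 deposited samples, combined in the table), aligned reads to hg38 with STAR, quantified them with RSEM and deposited CPM values normalized with edgeR. Tool versions are not given in the sources used here. The table lists 42141 genes, every column sums to 1000000, and 8 columns without a header were left out. Of the values, 89.7 to 90.8% were whole reads within a tolerance of 0.02, so no count test was run. The precision of a gene is limited by depth, as 1 CPM was worth 23.6 to 27.2 reads.

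Log2(CPM + 0.5) values of 14692 genes, those that reached 1 CPM in 3 or more libraries, entered 1 limma 3.58.1 fit (R 4.3.3) with cell line as the only factor and a variance trend. The p-values were adjusted over all genes by the Benjamini-Hochberg method, and genes were called at an adjusted p under 0.05. The labels call the replicates biological without naming separate cultures, so p-values measure the spread between these samples. The code was tested on simulated data. The 10 hosts, the related gene lists, the tests and the alternatives were chosen with earlier results of these data known. Named genes were the 10 hosts, the 3 knocked-out genes, every other non-coding host tested, up to 4 genes of each other list with the smallest p against WT cells, and the 5 genes with a mean of at least 5 CPM most like the hosts' median profile. Genes whose exons overlap a host were added, though not every one is reported here. Of 24 other non-coding hosts, 12 had no matching name and are not analysed here. Symbols were matched to GENCODE 44 for 24926 names directly and for 1077 by an older symbol. Starts came from RefSeq. Tables and figures were made with Python 3.11.15, pandas 2.3.3, NumPy 2.4.6 and Matplotlib 3.10.9. Alternatives were pseudocounts of 0.1 and 2, no filter, a mean of at least 5 CPM, median ratio rescaling, quantile normalization, correction of transcript length and GC trends (natural splines, 5 degrees of freedom each, 13353 genes or 90.9% of those tested), fits of 2 lines only, the replicate number as a block, no variance trend, and leaving out libraries.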

Additional observations from a re-analysis of the deposited data

Results flagged for a closer look

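Losing UGGT2 was read in both backgrounds that the lines allow, with UGGT1 present (ALG6/UGGT2-/- minus ALG6-/- cells) and with UGGT1 absent (ALG6/UGGT1/UGGT2-/- minus ALG6/UGGT1-/- cells). For 7 of the 10 hosts the UGGT2-deleted libraries lay wholly on one side in the first background and wholly on the opposite side in the second. Of all 14692 genes tested, 35.1% did the same, and 11.1% lay on the same side in both. The difference between the backgrounds was not tested. SNHG1 stood at 2.26 with UGGT1 present and -1.88 with UGGT1 absent on the log2 scale, SNHG15 at 1.98 and -0.54, and SNHG8 at 0.75 and -0.54. The first value of SNHG8 was -0.33 after the length and GC correction. SNHG3 stood at -2.60 with UGGT1 present and 0.57 with UGGT1 absent, SNHG6 at -0.77 and 1.13, SNHG7 at -0.77 and 0.44, and SNHG5 at -0.49 and 0.41. The other 3 hosts did not show this, as SNHG16 was lower in both backgrounds, at -0.79 and -0.36, and SNHG12 and GAS5 overlapped in the first. The median of all genes lay at 0.46 with UGGT1 present and -0.12 with UGGT1 absent, and the clone and the genotype cannot be told apart in these values.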

How the results depend on the processing

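Higher calls in ALG6-/- over WT cells made up 24.9% of calls as deposited, 51% after median ratio rescaling, 52.9% after quantile normalization and 53% after the length and GC correction. In ALG6/UGGT1/UGGT2-/- over WT cells the share was 38% as deposited, 48.1% after quantile normalization and 53.1% after the length and GC correction. In the 3 comparisons with ALG6-/- cells the share of higher calls was 71.2 to 72.3% as deposited and 47.5 to 51.2% under those settings. Depth limits SNHG12. The count of genes called in ALG6-/- over WT cells was 5726 in a fit of only those lines, against 8930. In ALG6/UGGT1-/- over WT cells it was 2298 after median ratio rescaling, against 3543. In ALG6/UGGT2-/- over WT cells it was 1008 after median ratio rescaling, 3226 after the length and GC correction and 925 in a fit of those lines only, against 2041. With 1 library left out, the counts against WT cells ran from 7143 to 10328 in ALG6-/-, 2479 to 4505 in ALG6/UGGT1-/-, 1234 to 2579 in ALG6/UGGT2-/- and 4195 to 5941 in ALG6/UGGT1/UGGT2-/- cells, and those against ALG6-/- cells from 9703 to 11512, 8582 to 10937 and 7386 to 10275. The count in ALG6/UGGT2-/- cells fell by over 1.5 times without ALG6/UGGT2-/- replicate 2 (1257), ALG6/UGGT2-/- replicate 3 (1234) or WT replicate 2 (1323). The cause of these changes was not tested.

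The median log2 fold change of the 10 hosts moved beyond its replicate spread in these cases. A mean of at least 5 CPM, which removes SNHG12, gave 0.16 in ALG6-/- over WT cells, -0.28 in ALG6/UGGT2-/- and -0.30 in ALG6/UGGT1/UGGT2-/- over WT cells, and, over ALG6-/- cells, -0.45 in ALG6/UGGT1-/-, -0.49 in ALG6/UGGT2-/- and -0.24 in the cells lacking all 3 genes. Median ratio rescaling gave 0.33 in ALG6-/- and -0.34 in ALG6/UGGT2-/- over WT cells, and -0.67, -0.82 and -0.66 over ALG6-/- cells. Quantile normalization gave 0.34, -0.35, -0.58, -0.66 and -0.55 in the same order. The length and GC correction gave 0.24, -0.34, -0.54, -0.47 and -0.44 in that order, and -0.31 in ALG6/UGGT1/UGGT2-/- over WT cells. A pseudocount of 2 gave -0.24 in ALG6/UGGT1/UGGT2-/- over ALG6-/- cells. Leaving out WT replicate 3 and ALG6-/- replicate 2 together gave -0.27 in ALG6/UGGT2-/- over WT cells, and -0.30 and -0.47 in ALG6/UGGT1-/- and ALG6/UGGT2-/- over ALG6-/- cells. With 1 library left out the medians ran from -0.13 to -0.01 in ALG6-/-, -0.35 to -0.27 in ALG6/UGGT1-/-, -0.37 to -0.27 in ALG6/UGGT2-/- and -0.49 to -0.39 in ALG6/UGGT1/UGGT2-/- over WT cells, and from -0.30 to -0.12, -0.47 to -0.33 and -0.32 to -0.24 over ALG6-/- cells.

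In ALG6-/- over WT cells the alternatives gave 8 to 22 coding hosts higher and 6 to 15 lower, 12 to 18 NMD factors lower, 6 to 11 coding NMD targets lower and 1 to 4 snoRNA particle genes higher. In ALG6/UGGT1/UGGT2-/- over WT cells they gave 4 to 12 coding hosts higher and 2 to 8 lower, and 3 to 5 of the other non-coding hosts lower.

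Some genes turned sign. Under the length and GC correction SNHG8 was 0.25 in ALG6-/- over WT cells, and -1.03 and -0.33 in ALG6/UGGT1-/- and ALG6/UGGT2-/- over ALG6-/- cells. SNHG8 in ALG6/UGGT1-/- over ALG6-/- cells was also -0.20 after median ratio rescaling and -0.29 after quantile normalization. GAS5 in ALG6/UGGT1/UGGT2-/- over ALG6-/- cells was -0.10 after median ratio rescaling, and GAS5 in ALG6/UGGT2-/- over ALG6-/- cells -0.23. Of hosts near 0, SNHG6 in ALG6/UGGT1/UGGT2-/- over ALG6-/- cells turned under 6 alternatives, SNHG12 in ALG6/UGGT1-/- over ALG6-/- cells under 5, SNHG1 in ALG6/UGGT1-/- over WT cells under 4 and SNHG8 in ALG6/UGGT2-/- over WT cells under 1 (-0.08). In ALG6-/- over WT cells SNHG9 was -0.30 after the length and GC correction, LRRC75A-AS1 was -0.07 after quantile normalization and -0.08 after the length and GC correction, and RPL4 was -0.05 after quantile normalization. LINC00338 in ALG6/UGGT1/UGGT2-/- over WT cells was 0.02 after the length and GC correction and 0 without WT replicate 2, and ran from -0.16 to 0 with 1 library left out.

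With the replicate number as a block, 8312 genes were called in ALG6-/- over WT cells, 3091 in ALG6/UGGT1-/-, 1662 in ALG6/UGGT2-/- and 4818 in ALG6/UGGT1/UGGT2-/- over WT cells. Over ALG6-/- cells the block gave 8283 to 10430 calls. It moved no host median. Of 30 pairs of same-numbered libraries, 14 correlated above 0.1 in their deviations from the line means (-0.75 to 0.75). As strong correlations of both signs were found, whether the numbers pair the samples of some lines cannot be told from them.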
